A study of Mus musculus with 11 samples.

Results

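The 10 genes described here encode enzymes that build sphingomyelin or a related lipid, take sphingomyelin apart, or release sphingosine from ceramide. They were picked by gene symbol out of the 29307 genes of the count table, and all 10 are listed there; the rule itself uses symbols only, but the genes were proposed with earlier results of these data known. They form a sphingomyelin synthase family of 3 genes (*Sgms1*, *Sgms2* and *Samd8*), a set of 4 sphingomyelinases (*Smpd1*, *Smpd2*, *Smpd3* and *Smpd4*) and a set of 3 ceramidases (*Acer2*, *Acer3* and *Asah1*). Their transcripts were measured by RNA sequencing of hepatic sinusoidal endothelial cells (ECs), which line the capillaries of the liver, from 6 conventionally raised (CONV-R) and 5 Germ-free (GF) mice. All mice were male C57BL/6J aged 10 to 12 weeks, were given the same diet and had no further treatment named in the sources used here. The GF mice lived in sterile isolators and had no gut microbes, whereas the CONV-R mice were specific-pathogen-free animals derived from those same colonies. ECs were enriched with CD146 beads and then sorted as CD31+ CD105+ CD146+ cells, and each library came from 1 mouse. The RNA (20 ng per mouse) was amplified before sequencing. Sorting gave fewer ECs and less RNA from GF than from CONV-R livers, and the authors reported low viability of the sorted cells. The part of the lower GF yield in the values was not tested. The question was whether each enzyme differed between GF and CONV-R ECs in the same way as its closest relatives.

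Sphingomyelin, a major lipid of the plasma membrane, is made in the Golgi when a synthase moves the phosphocholine head of phosphatidylcholine onto ceramide. Sphingomyelinases cleave sphingomyelin and give ceramide back, each in its own compartment, the acid enzyme in lysosomes and the neutral enzymes at other membranes. Ceramidases then cut ceramide into a fatty acid and sphingosine, the direct precursor of sphingosine-1-phosphate (S1P), a lipid that ECs export and that acts on their barrier through S1P receptors.

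Library totals ran from 7922855 to 14669352 counts (CONV-R) and from 7242717 to 16164588 counts (GF). Levels are given as CPM, counts relative to the library total after TMM scaling, which equalises library composition. Changes are given as Log2FC, the log2 ratio of GF to CONV-R. edgeR's quasi-likelihood test called 965 of 12905 tested genes at an adjusted p under 0.05 (7.48% of them), and 4.80% of the tested genes were called higher and 2.67% lower in GF ECs. The median Log2FC over all tested genes was -0.01. The endothelial label held against its markers: 0 of 12 sinusoidal endothelial markers were called by edgeR or by DESeq2, 6 had an unadjusted p under 0.05 in edgeR, and their summed level lay between 33334 and 46661 CPM in GF and between 34608 and 41678 CPM in CONV-R libraries. Of 10 Kupffer cell markers, genes of the resident liver macrophages, 7 were called higher and 0 lower in GF libraries, with a median Log2FC of 1.55. Their summed level was 288, 357, 197, 212 and 931 CPM in GF replicates 1, 2, 4, 5 and 6, against 86.0 to 222 CPM in CONV-R libraries. edgeR called 0 of 8 tested hepatocyte, 0 of 4 stellate cell and 0 of 3 lymphocyte markers, with 2 of each list at an unadjusted p under 0.05, while DESeq2 called 1 stellate cell and 1 lymphocyte marker. In bulk samples such as these, fewer cells of a type and less RNA per cell cannot be told apart.

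Of the 10 members, 8 had enough counts for the test and 2, *Sgms2* and *Smpd3*, did not. *Sgms1* and *Acer2* rose in GF ECs, *Acer3* fell, and 5 members were not called, so that 3 of the 8 tested members passed the threshold against 7.48% of all tested genes. The median Log2FC of the 8 was -0.03. The synthases and the ceramidases each held members that passed and members that did not, whereas of the sphingomyelinases 0 of 3 tested genes passed in edgeR, with an unadjusted p of 0.234 or more. All the CPM values are shown in the plot of levels by library.

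**Figure D1:**
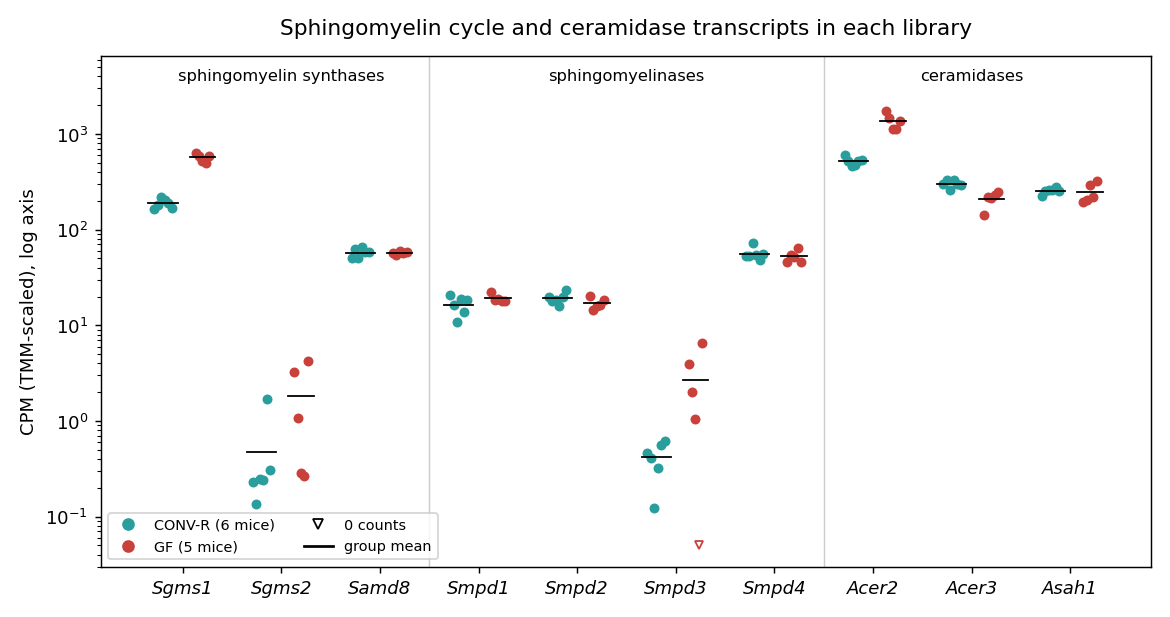
CPM (TMM-scaled, log axis) of the 10 genes in each library, with CONV-R mice (n = 6) in turquoise, GF mice (n = 5) in red and black bars at the group means; an open triangle marks a library with 0 counts. *Sgms1* and *Acer2* lie higher and *Acer3* lower in every GF library than in any CONV-R library, while *Sgms2* and *Smpd3* lie near or below a few CPM.

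*Sgms1* encodes sphingomyelin synthase 1, the Golgi enzyme of the family, and lies on the minus strand of chromosome 19 (GRCm38, 32122727 to 32389714). *Acer2* encodes alkaline ceramidase 2, also a Golgi enzyme, and lies on the plus strand of chromosome 4 (GRCm38, 86874396 to 86934822). The 250 bases before the most upstream RefSeq start of each gene (GRCm38.p6) are given because these are the members that rose together. They run 5′ to 3′ on the strand of the gene, and capitals mark GC boxes (GGGCGG on either strand).
Sgms1, chr19:32388513-32388762, minus strand: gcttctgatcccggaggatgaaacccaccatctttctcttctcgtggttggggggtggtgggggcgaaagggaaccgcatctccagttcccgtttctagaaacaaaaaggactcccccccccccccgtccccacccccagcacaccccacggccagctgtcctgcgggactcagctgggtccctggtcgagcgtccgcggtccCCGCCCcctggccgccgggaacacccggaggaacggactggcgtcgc
Acer2, chr4:86874164-86874413, plus strand: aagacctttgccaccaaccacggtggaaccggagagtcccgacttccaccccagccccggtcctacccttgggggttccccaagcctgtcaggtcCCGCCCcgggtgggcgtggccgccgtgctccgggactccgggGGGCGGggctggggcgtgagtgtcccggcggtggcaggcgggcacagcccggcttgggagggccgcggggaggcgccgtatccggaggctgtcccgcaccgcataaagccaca
The *Sgms1* stretch held 1 GC box and the *Acer2* stretch 2. A GC box was present in 35.7% of all 32851 RefSeq promoter windows of 300 bases, 250 before and 50 after a start. Over those 300 bases the GC content was 69.3% for *Sgms1* and 73.0% for *Acer2*. Neither of these windows held an E-box (CACGTG, in 7.15% of all windows), a glucocorticoid receptor half-site (AGAACA, 19.0%), an ETS site (CCGGAAG, 8.86%), a TATA box (TATAAA, 13.6%) or a CRE (TGACGTCA, 1.79%), all searched on both strands. *Sgms1* has 4 such windows and *Acer2* has 1, and 8 of the 10 members have at least 1. Of the other *Sgms1* windows, that at 32349267 to 32349566 held a TATA box and that at 32388000 to 32388299 held 2 GC boxes. The gene positions given above came from another annotation, GENCODE. The printed *Sgms1* stretch lies inside them, and the end of the *Acer2* stretch overlaps them. A GC box was also found in at least 1 window of *Sgms2*, *Samd8*, *Smpd1*, *Smpd2* and *Acer3*, and in none of *Smpd4*. These matches describe letters in a window and not bound sites.

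In the synthase family, *Sgms1* stood at 638, 594, 525, 495 and 590 CPM in GF replicates 1, 2, 4, 5 and 6. In CONV-R libraries it had a lowest value of 166, a median of 186 and a highest of 218 CPM. The groups were thus far apart, with no GF mouse near the CONV-R range. The means were 568 ± 57.2 CPM in GF (SD, n = 5) and 188 ± 20.1 CPM in CONV-R ECs (SD, n = 6), a 3.03-fold difference with a 95% interval of 2.59 to 3.53 (Log2FC 1.60, standard error 0.11, adjusted p = 1.1e-07 by edgeR quasi-likelihood testing and Benjamini-Hochberg correction). The counts behind these means were 29575 in the GF and 13627 in the CONV-R libraries. When the mean Kupffer cell marker level was added as a covariate, the Log2FC was 1.65 (adjusted p = 0.000207 by edgeR quasi-likelihood testing and Benjamini-Hochberg correction). A long noncoding RNA annotated on the opposite strand at the *Sgms1* promoter, *2700046G09Rik*, shares 10 exonic bases with it. Its level was 3.04 ± 1.09 CPM in GF (SD, n = 5) and 2.45 ± 0.69 CPM in CONV-R libraries (SD, n = 6), with an adjusted p of 0.635 by edgeR quasi-likelihood testing and Benjamini-Hochberg correction.

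*Samd8* encodes the synthase relative SMSr, which makes ceramide phosphoethanolamine in the endoplasmic reticulum. It had 57.0, 54.8, 59.9, 56.6 and 58.3 CPM in GF replicates 1, 2, 4, 5 and 6. The CONV-R libraries spread from 50.03 to 65.8 CPM around a median of 58.4, so that every GF value fell inside the CONV-R range. The Log2FC was -0.01, with a 95% interval from -0.24 to 0.22 (adjusted p = 0.972 by edgeR quasi-likelihood testing and Benjamini-Hochberg correction). A difference of the size seen for *Sgms1* lies outside that interval.

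*Sgms2* encodes the synthase of the plasma membrane and was barely counted. GF replicates 1, 2, 4, 5 and 6 had 50, 11, 3, 2 and 31 counts of it, or 3.25, 1.06, 0.286, 0.264 and 4.20 CPM. CONV-R replicate 5 had 21 counts (1.70 CPM) and the other CONV-R libraries 2 to 4. The groups overlapped, and GF replicates 1 and 6 carried most of the GF counts. In a fit without the count filter, its Log2FC was 1.88 (95% interval 0.46 to 3.30, adjusted p = 0.133 by edgeR quasi-likelihood testing and Benjamini-Hochberg correction), and an exact permutation test of log2 CPM gave p = 0.0996 (two-sided, n = 5 and 6). The value turned on single mice: the Log2FC was 2.90 without CONV-R replicate 5 (adjusted p = 0.0157), 2.16 without GF replicate 4 (0.0442), 2.15 without GF replicate 5 (0.0431) and 1.351 without GF replicate 6 (0.366), all by edgeR quasi-likelihood testing and Benjamini-Hochberg correction. It was 0.14 without GF replicates 1 and 6 (adjusted p = 0.966) and 0.98 when Kupffer cell marker level was a covariate (0.996), by the same test.

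**Figure D2:**
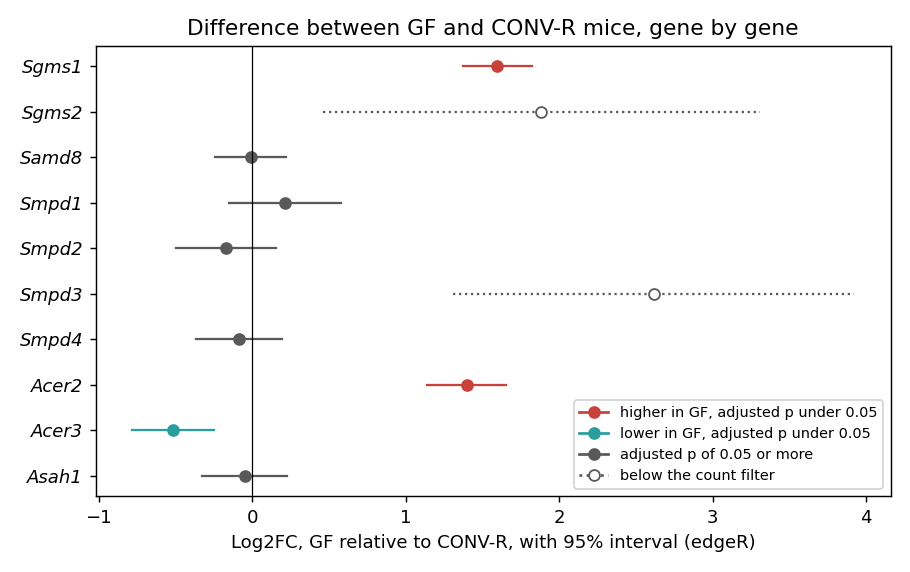
Log2FC of each gene in GF relative to CONV-R mice (n = 5 and 6) with its 95% interval from edgeR. Red and turquoise points are tested genes that passed an adjusted p of 0.05, and filled grey points are tested genes that did not. Open points with dotted lines are genes below the count filter, fitted without it and drawn in grey whatever their p. Their intervals, 0.46 to 3.30 for *Sgms2* and 1.31 to 3.92 for *Smpd3*, lie above 0. The intervals of *Sgms1* (1.37 to 1.82) and *Acer2* (1.14 to 1.65) lie well above 0, that of *Acer3* (-0.78 to -0.25) lies below it, and those of the other 5 tested genes include 0.

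Of the sphingomyelinases, the 3 tested genes were not called, and *Smpd3* was below the count filter. *Smpd1* encodes acid sphingomyelinase, the lysosomal enzyme that is lost in Niemann-Pick disease types A and B. Its levels were 22.2, 18.4, 19.0, 17.8 and 18.2 CPM in GF replicates 1, 2, 4, 5 and 6 and 10.9 to 20.9 CPM (median 17.3) in CONV-R libraries. Except for GF replicate 1, the GF values stayed inside the CONV-R range. The Log2FC was 0.21, with a 95% interval from -0.15 to 0.58 (adjusted p = 0.499 by edgeR quasi-likelihood testing and Benjamini-Hochberg correction).

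*Smpd2* encodes neutral sphingomyelinase 1. It had 20.3, 14.3, 15.9, 16.1 and 18.3 CPM in the same GF libraries and 15.8 to 23.4 CPM (median 18.9) in CONV-R libraries, 2 overlapping groups. The Log2FC was -0.17 with an interval from -0.50 to 0.16 (adjusted p = 0.557 by edgeR quasi-likelihood testing and Benjamini-Hochberg correction). Of its exonic bases, 905 (20.3%) are also exonic in *Mical1* on the opposite strand, and since the strand setting of the counting is not given, reads there cannot be assigned with certainty. *Mical1* itself had 2.40 ± 1.72 CPM in GF (SD, n = 5) and 3.89 ± 1.93 CPM in CONV-R libraries (SD, n = 6).

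*Smpd4* encodes neutral sphingomyelinase 3, a protein of the endoplasmic reticulum and nuclear envelope. GF replicates 1, 2, 4, 5 and 6 had 46.1, 54.7, 51.7, 65.0 and 46.0 CPM, and the CONV-R libraries ran from 48.3 to 72.2 CPM with a median of 53.8. The spread within each group, 7.85 CPM (SD, n = 5) in GF and 8.27 CPM (SD, n = 6) in CONV-R ECs, exceeded the distance between the means of 52.7 and 56.0 CPM. The Log2FC was -0.09 with an interval from -0.37 to 0.19 (adjusted p = 0.747 by edgeR quasi-likelihood testing and Benjamini-Hochberg correction).

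*Smpd3* encodes neutral sphingomyelinase 2, which is known for its part in the release of exosomes. It had 61, 21, 11, 0 and 48 counts in GF replicates 1, 2, 4, 5 and 6, or 3.96, 2.03, 1.05, 0 and 6.51 CPM, and between 1 and 8 counts (0.123 to 0.621 CPM) in CONV-R libraries. The 0 of GF replicate 5 allows a level of up to 0.397 CPM, the level of 3 counts in that library, a limit for counting error only. The other 4 GF libraries lay above every CONV-R library, whereas GF replicate 5 lay below CONV-R replicates 1, 2, 5 and 6 and cannot be ranked against CONV-R replicates 3 and 4. Of the *Smpd3* exonic bases, 247 (4.72%) are also exonic in *Prmt7* on the opposite strand, which had 10.1 ± 1.68 CPM in GF (SD, n = 5) and 8.56 ± 1.05 CPM in CONV-R libraries (SD, n = 6), and reads there cannot be assigned with certainty. Fitted without the filter, the Log2FC was 2.62 (95% interval 1.31 to 3.92, adjusted p = 0.00808 by edgeR quasi-likelihood testing and Benjamini-Hochberg correction; 4.48% of all genes in that fit were called). DESeq2 gave an adjusted p of 0.00469 (9.83% of genes called), while an exact permutation test of log2 CPM gave p = 0.165 (two-sided, n = 5 and 6). Without GF replicate 6 the adjusted p was 0.0934, and without GF replicates 1 and 6 the Log2FC was 1.24 (adjusted p = 0.50), both by edgeR quasi-likelihood testing and Benjamini-Hochberg correction.

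GF replicates 1 and 6 had the highest *Sgms2* and *Smpd3* CPM of all 11 libraries, and they also had the highest sums of 4 cholangiocyte markers, genes of the bile duct epithelium. That sum was 13.8, 5.70, 0.286, 0.793 and 22.1 CPM in GF replicates 1, 2, 4, 5 and 6 and 0.137 to 2.58 CPM in CONV-R libraries. *Krt19* was the only marker of this list with enough counts for the test (Log2FC 2.87, adjusted p = 0.0959 by edgeR quasi-likelihood testing and Benjamini-Hochberg correction). GF replicate 6 also had the highest Kupffer cell sum, 931 CPM. The part of these cells in the *Sgms2* and *Smpd3* values was not tested; when Kupffer cell marker level was a covariate, the Log2FC of *Smpd3* was 0.87 and its adjusted p 0.996 by edgeR quasi-likelihood testing and Benjamini-Hochberg correction.

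**Figure D3:**
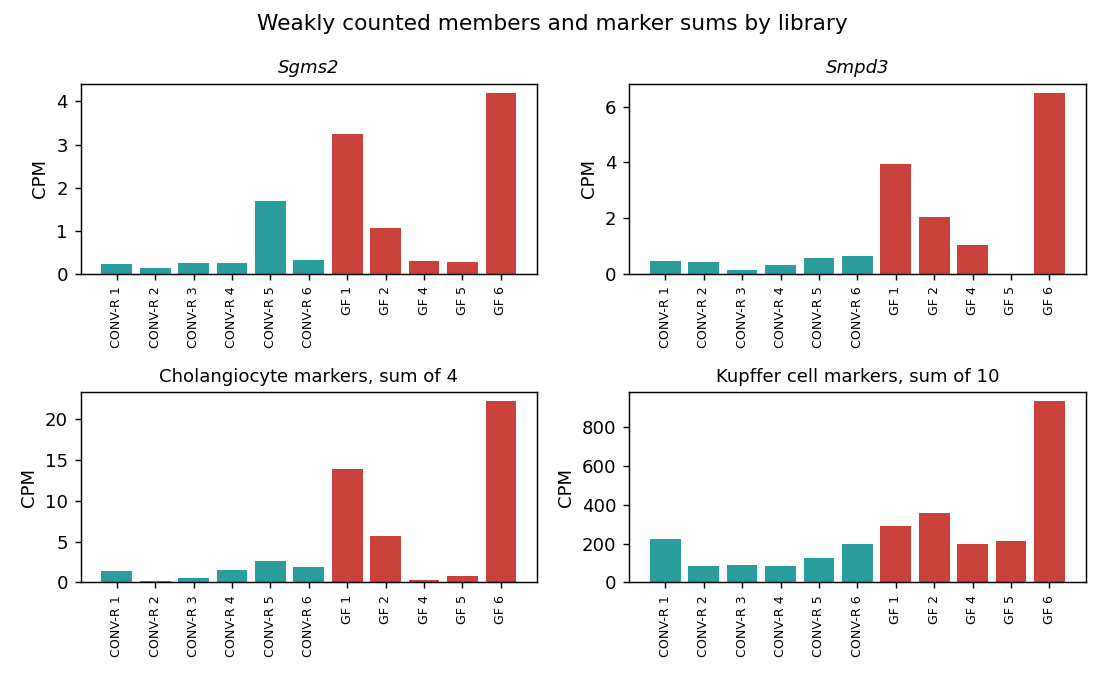
CPM per library (linear axes from 0) of *Sgms2*, *Smpd3*, and the summed markers of cholangiocytes (4 genes) and Kupffer cells (10 genes), with CONV-R mice in turquoise and GF mice in red. GF replicates 1 and 6 hold the tallest bars in the panels of *Sgms2*, *Smpd3* and the cholangiocyte markers, and GF replicate 6 (931 CPM) in that of the Kupffer cell markers.

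Among the ceramidases, *Acer2* stood at 1734, 1477, 1126, 1128 and 1378 CPM in GF replicates 1, 2, 4, 5 and 6. The CONV-R libraries had between 464 and 603 CPM with a median of 521. The lowest GF mouse was thus well above the highest CONV-R mouse. The means of 1368 ± 256 CPM in GF (SD, n = 5) and 520 ± 50.2 CPM in CONV-R ECs (SD, n = 6) differed 2.63-fold, with a 95% interval of 2.20 to 3.15 (Log2FC 1.40, standard error 0.12, adjusted p = 2.75e-06 by edgeR quasi-likelihood testing and Benjamini-Hochberg correction). When Kupffer cell marker level was a covariate, the Log2FC was 1.19 (adjusted p = 0.00259 by edgeR quasi-likelihood testing and Benjamini-Hochberg correction).

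*Acer3* encodes alkaline ceramidase 3 of the endoplasmic reticulum and Golgi and went the other way. It had 144, 220, 215, 228 and 248 CPM in GF replicates 1, 2, 4, 5 and 6, against 259 to 329 CPM (median 299) in CONV-R libraries. The groups did not overlap, although GF replicate 6 came close to the lowest CONV-R mouse. The mean was 211 ± 39.8 CPM in GF (SD, n = 5) and 302 ± 25.6 CPM in CONV-R ECs (SD, n = 6). The fitted level in GF ECs was 0.699 of that in CONV-R ECs, with a 95% interval of 0.581 to 0.842 (Log2FC -0.52, standard error 0.13, adjusted p = 0.0197 by edgeR quasi-likelihood testing and Benjamini-Hochberg correction). The library with the highest *Acer2* level of all, GF replicate 1, had the lowest *Acer3* level. The call did not survive the Kupffer cell covariate (Log2FC -0.59, adjusted p = 0.295 by edgeR quasi-likelihood testing and Benjamini-Hochberg correction, with 83 genes called in all), nor limma on the authors' normalized log2 values (-0.43, Benjamini-Hochberg adjusted p = 0.0526).

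*Asah1* encodes acid ceramidase, the lysosomal enzyme that is lost in Farber disease. Its levels were 193, 206, 294, 220 and 323 CPM in GF replicates 1, 2, 4, 5 and 6 and 225 to 282 CPM (median 257) in CONV-R libraries. GF values lay on both sides of the CONV-R range, 3 below it and 2 above it. The SD was 57.9 CPM in GF (n = 5) and 18.7 CPM in CONV-R ECs (n = 6). The Log2FC was -0.05 with an interval from -0.33 to 0.23 (adjusted p = 0.869 by edgeR quasi-likelihood testing and Benjamini-Hochberg correction).

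Each gene was then set against its relatives by the log2 ratio of their counts within a library, a measure that no scaling of the library can move. The 12 pairs within the 3 families were compared by two-sided exact permutation tests that enumerate the 462 ways to divide the 11 mice, for which 0.00216 is the smallest possible p, and were adjusted over the 12 pairs. The groups did not overlap in 3 pairs, and 4 pairs had an adjusted p under 0.05. Of single genes, the CPM of the groups did not overlap for 3 of the 8 tested members (2 higher and 1 lower in GF ECs) and for 5.59% of all tested genes (3.22% higher and 2.37% lower).

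There were 11.2, 10.8, 8.76, 8.75 and 10.1 *Sgms1* counts for each *Samd8* count in GF replicates 1, 2, 4, 5 and 6. On the log2 scale this ratio was 3.30 ± 0.17 in GF (SD, n = 5) and 1.70 ± 0.21 in CONV-R mice (SD, n = 6), without overlap. It was 3.03-fold higher in GF ECs, a log2 difference of 1.60 with a 95% interval from 1.33 to 1.86 (exact permutation test, p = 0.00216, adjusted p = 0.00866). By contrast, *Sgms1* against *Sgms2* differed by -0.01 with an interval from -1.97 to 1.92 (exact permutation test, p = 0.996). The log2 ratio of these genes had an SD of 1.63 in GF (n = 5) and 1.14 in CONV-R mice (n = 6), and the interval includes differences as large as that of *Sgms1* against *Samd8*. The ratio of *Sgms2* to *Samd8* differed by 1.61 with an interval from -0.41 to 3.66 (exact permutation test, p = 0.110, adjusted p = 0.197).

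In the ceramidases, there were 12.1, 6.72, 5.22, 4.94 and 5.55 *Acer2* counts for each *Acer3* count in GF replicates 1, 2, 4, 5 and 6. The log2 ratio was 2.70 ± 0.53 in GF (SD, n = 5) and 0.78 ± 0.17 in CONV-R ECs (SD, n = 6), with the highest CONV-R value at 1.02. The ratio was 3.77-fold higher in GF ECs, a log2 difference of 1.92 with a 95% interval from 1.497 to 2.45 (exact permutation test, p = 0.00216, adjusted p = 0.00866), the largest difference among the 4 pairs that passed. *Acer2* against *Asah1* differed by 1.46 with an interval from 0.94 to 2.01 and without overlap (exact permutation test, p = 0.00216, adjusted p = 0.00866). *Acer3* against *Asah1* was lower in GF ECs by a log2 difference of -0.46 with an interval from -0.77 to -0.14 (exact permutation test, p = 0.0130, adjusted p = 0.0390), but GF replicates 2 and 5, at 0.10 and 0.05, lay inside the CONV-R range of -0.01 to 0.40. Leaving out each mouse in turn, this last pair passed in 3 of 11 runs, and without GF replicates 1 and 6 its adjusted p was 0.143 (exact permutation test).

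Of the 6 sphingomyelinase pairs, none passed the adjusted threshold. *Smpd1* against *Smpd2* came nearest, with a log2 difference of 0.41 and an interval from 0.00 to 0.83 (exact permutation test, p = 0.0498, adjusted p = 0.119). The pair of *Smpd1* and *Smpd4* differed by 0.33 (interval -0.17 to 0.91) and that of *Smpd2* and *Smpd4* by -0.08 (interval -0.55 to 0.37). The 3 pairs with *Smpd3* had differences of 1.39 to 1.80 in size, toward more *Smpd3* in GF ECs, and intervals that included 0. In GF replicate 5 these ratios are set by the added counts, since it had 0 *Smpd3* counts, and are bounds; with 2 added counts in place of 0.5 the differences were 1.44 to 1.85 in size and the adjusted p values 0.0883 to 0.127 (exact permutation tests). Without GF replicate 5, the library with 0 *Smpd3* counts, all 3 passed (exact permutation test, adjusted p = 0.00952 each). The differences were then -2.44 for *Smpd1*/*Smpd3*, -2.86 for *Smpd2*/*Smpd3* and 2.87 for *Smpd3*/*Smpd4*. With each mouse left out in turn, each of these pairs passed in 1 of 11 runs. Without GF replicates 1 and 6, the same differences were -0.13, -0.62 and 0.29 (exact permutation test, adjusted p = 0.881 each).

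**Figure D4:**
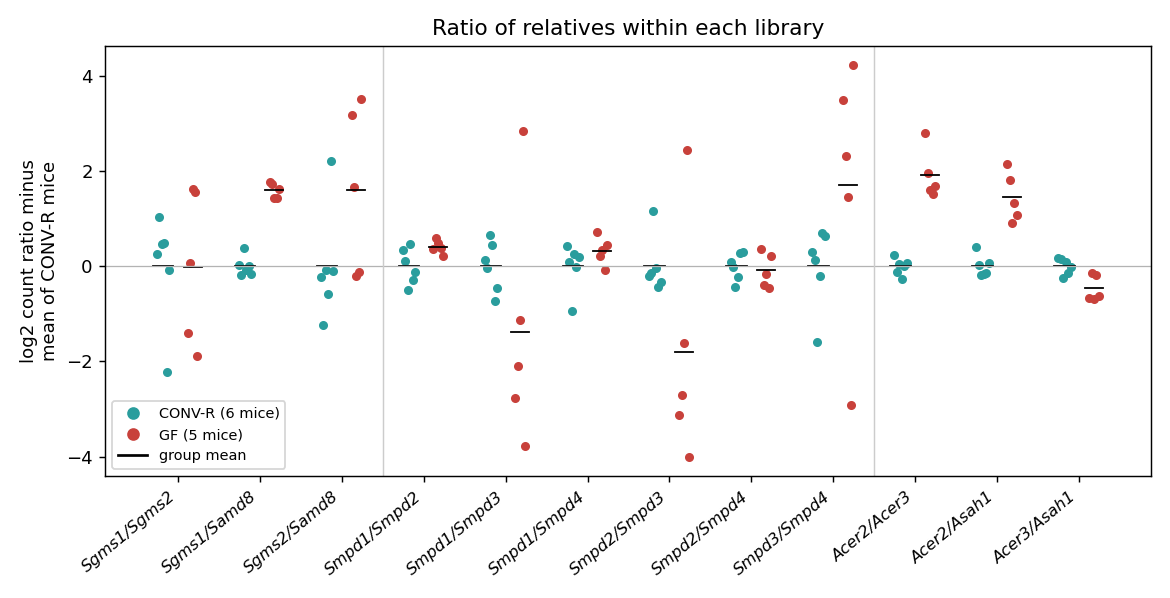
Log2 ratio of the counts of 2 relatives within each library, minus the mean of that ratio over the CONV-R mice, for the 12 pairs, with CONV-R mice (n = 6) in turquoise, GF mice (n = 5) in red and bars at the group means. The GF points of *Sgms1*/*Samd8*, *Acer2*/*Acer3* and *Acer2*/*Asah1* stand clear above all CONV-R points, and the pairs with *Sgms2* or *Smpd3* spread over several log2 units.

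Levels of different genes were compared per kilobase of annotated exon (RPKM, the CPM divided by the merged length of all exons of the gene). In CONV-R ECs, *Asah1* (66.3 to 83.3 RPKM) and *Acer2* (64.8 to 84.3 RPKM) stood at the top and overlapped. *Acer3* (16.9 to 21.4 RPKM) and *Sgms1* (15.7 to 20.7 RPKM) followed and overlapped too. *Samd8* and *Smpd4*, with means of 7.56 and 6.20 RPKM, overlapped in range, as did *Smpd4* with *Smpd1* (mean 4.94) and *Smpd1* with *Smpd2* (mean 4.28). *Smpd3* and *Sgms2* came last, at no more than 0.119 and 0.272 RPKM.

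In GF ECs the order at the top was different. *Acer2* reached 157 to 242 RPKM, above every *Asah1* value (56.9 to 95.4 RPKM). *Sgms1*, at 47.0 to 60.5 RPKM, overlapped *Asah1* and lay above every *Acer3* value (9.38 to 16.2 RPKM). The lower part of the order, from *Samd8* (mean 7.50 RPKM) through *Smpd4* (5.83), *Smpd1* (5.74) and *Smpd2* (3.80) to the weakly counted *Smpd3* and *Sgms2*, was as in CONV-R ECs, and of these neighbours *Smpd1* (5.35 RPKM or more) and *Smpd2* (4.55 RPKM or less) did not overlap. The order depended on the length used: with the longest annotated transcript (4036 bases in place of 10546 for *Sgms1*), *Sgms1* had a mean of 46.6 RPKM in CONV-R ECs, above *Acer3* at 26.6, and a mean of 141 RPKM in GF ECs, above *Asah1* at 89.2. On that length *Smpd4* (11.2 RPKM) also stood above *Samd8* (8.49 RPKM) in CONV-R ECs, and *Acer2* (123 RPKM) above *Asah1* (92.3 RPKM).

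Summed over its members, the synthase family had 22.3 to 27.9 RPKM in CONV-R and 54.4 to 68.5 RPKM in GF ECs. *Sgms1* made up 67.5% to 75.5% of that sum in CONV-R and 86.3% to 88.5% in GF libraries. For the ceramidases, the sum was 159 to 176 RPKM in CONV-R and 237 to 308 RPKM in GF ECs. The *Acer2* share of it was 40.1% to 49.6% in CONV-R and 60.9% to 78.5% in GF libraries. Both other shares were smaller in GF ECs, at 3.04% to 6.28% against 10.7% to 13.0% for *Acer3* and at 18.4% to 33.6% against 39.0% to 48.5% for *Asah1*. The sphingomyelinase sum, 14.1 to 16.9 RPKM in CONV-R and 15.2 to 17.1 RPKM in GF ECs, overlapped between the groups. The sums and shares depend on the length used. With the longest annotated transcript, the synthase sum was 48.5 to 61.6 RPKM in CONV-R and 131 to 167 RPKM in GF ECs, with an *Sgms1* share of 82.8% to 87.7% and 93.6% to 94.7%. On that length the ceramidase sum was 227 to 252 RPKM in CONV-R and 367 to 493 RPKM in GF ECs, with an *Acer2* share of 47.6% to 57.2% and 68.1% to 83.3%, so that these ranges did not overlap between the groups on either length. These sums and shares are descriptions and were not tested.

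**Figure D5:**
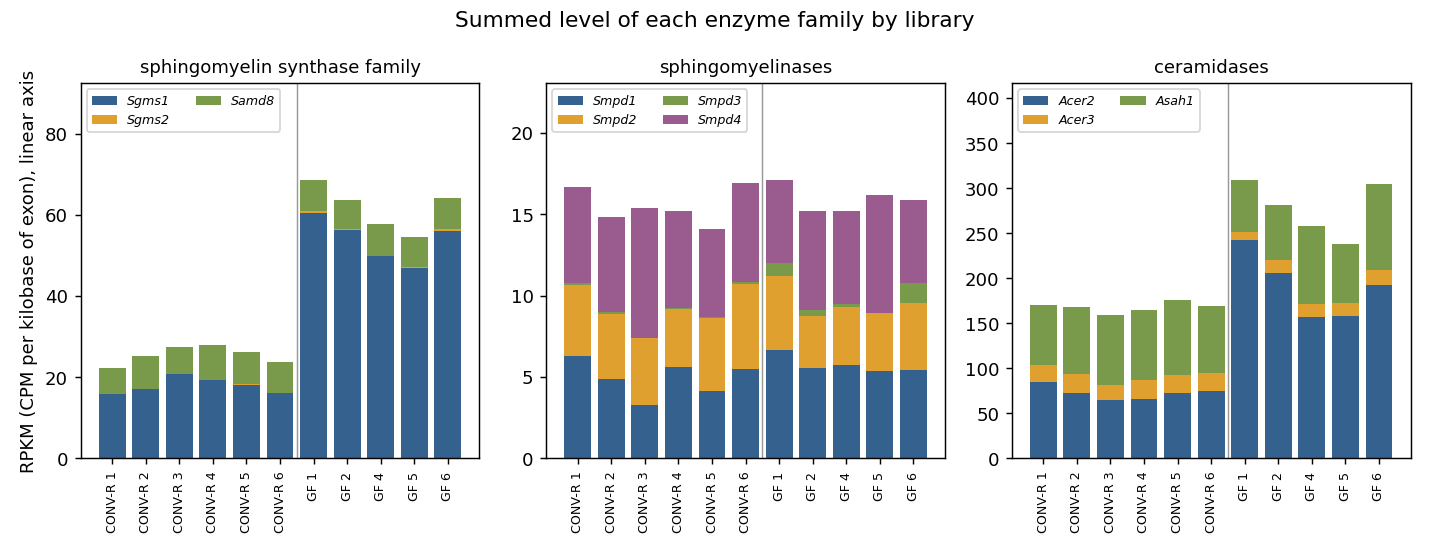
Summed RPKM (CPM per kilobase of exon, linear axes from 0, a different scale per panel) of each enzyme family in each library, split by gene. The synthase and ceramidase bars of the GF mice are taller through *Sgms1* and *Acer2*, and the sphingomyelinase bars stay between 14.1 and 17.1 RPKM in all libraries.

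Of 6 near relatives that are not among the 10 genes, 2 had enough counts for the test and neither passed. *Asah2*, which encodes neutral ceramidase, had 228 ± 31.9 CPM in GF (SD, n = 5) and 261 ± 47.6 CPM in CONV-R ECs (SD, n = 6; Log2FC -0.20, adjusted p = 0.414 by edgeR quasi-likelihood testing and Benjamini-Hochberg correction). *Smpdl3a*, an acid sphingomyelinase-like gene, had a Log2FC of -0.06 (adjusted p = 0.908 by edgeR quasi-likelihood testing and Benjamini-Hochberg correction). *Acer1*, *Enpp7* (alkaline sphingomyelinase), *Smpd5* and *Smpdl3b* were below the filter, with 10, 2, 22 and 22 counts over the GF libraries and 12, 0, 37 and 66 over the CONV-R libraries.

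The steps around the cycle were read from 5 lists, each set against 4.80% of tested genes called higher and 2.67% called lower, and a median Log2FC of -0.01 over all of them. Of 13 tested genes of de novo ceramide synthesis, 1 was higher and 0 lower in GF ECs (median Log2FC 0.08). That gene was *Cers6*, a ceramide synthase (18.4 ± 14.1 CPM in GF, SD, n = 5, and 5.98 ± 1.75 CPM in CONV-R ECs, SD, n = 6; Log2FC 1.61, adjusted p = 0.0154 by edgeR quasi-likelihood testing and Benjamini-Hochberg correction), and its groups overlapped. Of 10 tested genes that transfer, phosphorylate or glycosylate ceramide or take sugars off it again, 1 was higher and 0 lower (median 0.17). It was *Cerk*, ceramide kinase, with 89.4 ± 10.8 CPM in GF (SD, n = 5) and 61.6 ± 7.14 CPM in CONV-R ECs (SD, n = 6; Log2FC 0.54, adjusted p = 0.0111 by edgeR quasi-likelihood testing and Benjamini-Hochberg correction).

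Among 12 tested lysosomal partners of sphingolipid breakdown, 3 were higher and 0 lower in GF ECs (median Log2FC 0.34). *Lipa*, lysosomal acid lipase, had a Log2FC of 1.08 (adjusted p = 9.24e-06), and *Psap*, the precursor of the saposins that assist acid sphingomyelinase and acid ceramidase, one of 1.04 (adjusted p = 0.0039), both by edgeR quasi-likelihood testing and Benjamini-Hochberg correction. The lysosomal members themselves, *Smpd1* and *Asah1*, did not pass. Kupffer cells, whose markers were higher in the same GF libraries, are rich in lysosomes, and their part in the values of this list was not tested. Of 11 tested genes of S1P formation, breakdown, export and reception, 1 was higher and 0 lower (median 0.08). That gene was *S1pr1*, the main S1P receptor of ECs (482 ± 74.1 CPM in GF, SD, n = 5, and 146 ± 8.03 CPM in CONV-R ECs, SD, n = 6; Log2FC 1.72, adjusted p = 1.1e-07 by edgeR quasi-likelihood testing and Benjamini-Hochberg correction). DESeq2 called 2 genes of the S1P list. *Sphk1*, which encodes a kinase that forms S1P, was below the filter. It had 45 counts over the GF and 8 over the CONV-R libraries, or means of 0.887 and 0.099 CPM, and its groups overlapped. In the list of phosphatidylcholine supply, 0 of 5 tested genes were higher and 1 was lower, *Chpt1*, choline phosphotransferase (Log2FC -0.60, adjusted p = 0.00864 by edgeR quasi-likelihood testing and Benjamini-Hochberg correction).

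The genes with the profile most like *Sgms1* were found by the root mean square distance between log2 CPM values, each gene centred on its own mean, over the 11 libraries. They were the transcription factor *Klf9* (0.155), *S1pr1* (0.160), the co-chaperone *Fkbp5* (0.177), the transcriptional regulator *Tsc22d1* (0.232) and *Acer2* (0.233), with Log2FC values between 1.40 and 1.72. For *Acer2* they were *Mlxip* (0.182), *Shroom2* (0.183), *Fkbp5* (0.226), *Ucp2* (0.229) and *Gatsl3* (0.230), and *Sgms1* ranked 7. Of the members' closest relatives, *Samd8* ranked 4170 by likeness to *Sgms1*, and *Acer3* and *Asah1* ranked 10161 and 6377 by likeness to *Acer2*. All ranks are among the tested genes. Because each gene was centred over both groups, a difference in Log2FC itself adds to the distance. The ranks thus largely restate the Log2FC values and are not separate evidence. The 11 values of each gene share their libraries and their depth, and these distances were not tested.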

How the data were processed

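RNA of sorted hepatic sinusoidal ECs was measured in 6 CONV-R and 5 GF mice, grouped by the treatment label, 1 library per mouse. The authors amplified 20 ng of RNA, sequenced 50-base reads, trimmed them with Trim Galore, mapped them to GRCm38 with STAR, summed reads per gene with featureCounts and excluded 1 GF library with fewer mapped reads. The labels name a TruSeq RNA kit, and the strand setting and annotation release are not given in the sources used here. Both kinds of deposited values were used: raw counts per gene that the authors deposited without normalization, and log2 values that the authors deposited after normalization with the DESeq method. The members and lists were chosen with earlier results of these data known, and so were the motifs and the alternatives.

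Counts were tested in R 4.3.3 with edgeR 4.0.16 (filterByExpr, TMM, quasi-likelihood test, Benjamini-Hochberg adjustment over 12905 genes, threshold 0.05, no covariate). The standard error is the absolute Log2FC over the square root of F. Members below the filter were taken from a fit without it. Ratios of relatives used 0.5 added counts and two-sided exact permutation tests over the mice, with intervals from the shifts that the test did not reject. Lengths and positions came from GENCODE M21 (29146 of 29307 genes matched by identifier) and promoter windows from RefSeq (GRCm38.p6). The members, 6 relatives outside them, at most 2 genes per direction of each pathway list by adjusted p, and the 5 genes most alike in profile are named.

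Alternatives were DESeq2 1.42.0 and its size factors, voom of limma 3.58.1, limma on the deposited log2 values, fits without a filter, with a minimum of 10 counts per library, with robust dispersion, with a replicate block or with a Kupffer cell marker covariate (their mean log2 CPM), 2 added counts, the longest transcript as length, and each mouse left out. Leaving out GF replicates 1 and 6 together, and family sums on the longest transcript, were added after the data were seen. In simulated data with the same library sizes, edgeR recovered 100% of changed genes at a log2 fold of 2, 67.2% at 1 and 13.0% at 0.5, among 13049 genes. Every simulated gene had the same dispersion, whereas real genes differ in spread. These shares therefore check the fit and are not the recovery to be had in the real libraries. All 25 pairs of libraries within a group differed by more than sampling noise (chi-square per degree of freedom 8.76 to 49.9). Floors and counts cover counting error only. Figures were made in Python 3.11.15 with matplotlib 3.10.9.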

Additional observations from a re-analysis of the deposited data

Results flagged for a closer look

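In 9 of 56 groups of values, the highest or lowest mouse lay further from the others than Dixon's 95% limit allows; chance does this in about 1 of 20 groups, and several of these values share a mouse. For *Sgms2*, CONV-R replicate 5 had 1.70 CPM against 0.137 to 0.310 CPM in the other CONV-R mice, which also set its log2 ratio of *Sgms1* to *Sgms2* (6.78, others 8.92 to 10.04) and of *Sgms2* to *Samd8* (-5.08, others -8.52 to -7.38). For *Smpd4*, CONV-R replicate 3 had 72.2 CPM against 48.3 to 55.2 CPM. That mouse was also apart in the log2 ratios of *Sgms1* to *Samd8* (2.09, others 1.52 to 1.73), *Smpd1* to *Smpd4* (-2.72, others -1.80 to -1.36) and *Smpd2* to *Smpd3* (6.64, others 5.04 to 5.46), the last with 1 *Smpd3* count. Its *Sgms1* to *Samd8* ratio was the CONV-R value nearest to the GF mice and remained below all of them. Among GF mice, replicate 1 had 22.2 CPM of *Smpd1* against 17.8 to 19.0 CPM, and replicate 6 had 931 CPM of summed Kupffer cell markers against 197 to 357 CPM.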

How the results depend on the processing

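*Sgms1* and *Acer2*, as single genes, passed under every alternative run. The number of called members was 3, and it was 4 with DESeq2 or without a filter, 2 with the Kupffer cell covariate or limma on the deposited log2 values, and 3 to 4 with 1 mouse left out. Over all tested genes, 965 calls became 1527 with DESeq2, 83 with the Kupffer cell covariate, 388 without GF replicates 1 and 6, and 622 to 1260 with 1 mouse left out, lowest without GF replicate 6 or CONV-R replicate 4 (625). *Acer3* kept its call with each mouse left out (largest adjusted p 0.0486 by edgeR quasi-likelihood testing and Benjamini-Hochberg correction). Members near 0 changed sign: *Samd8* with the covariate (0.089), on the deposited log2 values (0.014) and with 1 mouse left out (-0.049 to 0.027), *Smpd4* with the covariate (0.041) and without GF replicates 1 and 6 (0.028), and *Asah1* with 1 mouse left out (-0.16 to 0.028). *Smpd3* lost its call with voom (1.72), the covariate (0.87), the deposited log2 values (1.27) without GF replicates 1 and 6 (1.24) and without GF replicate 6 alone (2.04). The cause was not tested.

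The difference in *Sgms1*/*Sgms2* changed sign with 2 added counts (0.18), on the deposited log2 values (0.39), without GF replicates 1 and 6 (1.08) and with 1 mouse left out (-0.45 to 0.46). With 1 mouse left out, *Acer3*/*Asah1* ran from -0.54 to -0.40, *Smpd1*/*Smpd2* from 0.31 to 0.51 (passing only without CONV-R replicate 4), *Smpd2*/*Smpd4* from -0.20 to 0.012, *Smpd1*/*Smpd3* from -2.44 to -0.79, *Smpd2*/*Smpd3* from -2.86 to -1.25 and *Smpd3*/*Smpd4* from 1.09 to 2.87. *Smpd1*/*Smpd4* ran from 0.14, without CONV-R replicate 3, to 0.43 and did not pass in any of these runs. Without GF replicates 1 and 6, *Acer3*/*Asah1* was -0.34 and no longer passed.

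The replicate numbers shared by both groups did not pair the mice: correlations of same-numbered deviations were 0.187, 0.027, -0.004, 0.022 and 0.100, and 2 of 5 GF mice correlated best with their own number. With the replicate block, the same 3 members were called. For ratios, the block leaves 5 pairs and a smallest exact sign-flip p of 0.0625, so no pair could pass; the differences were 1.68 for *Sgms1*/*Samd8*, 1.93 for *Acer2*/*Acer3*, 1.42 for *Acer2*/*Asah1*, -0.51 for *Acer3*/*Asah1* and 0.089 for *Sgms1*/*Sgms2*.

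*Sgms2* and *Smpd3* had 35 and 32 counts in all CONV-R libraries together, and their GF counts ran from 2 to 50 and from 0 to 61 between mice; the parts of depth and of differences between mice were not tested.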
